A study of Mus musculus with 2 samples.

Results

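The insulin-like growth factor (IGF) axis was examined in mouse osteoblasts, the bone-forming cells, after a rise in extracellular phosphate. It comprised 10 genes, the ligands Igf1 and Igf2, the receptors Igf1r and Igf2r, and the binding proteins Igfbp2 to Igfbp7, out of 18193 genes named on the arrays. All 28 probe sets whose annotation named only a gene of this axis were taken. A further probe set named both Igf2r and Airn, a non-coding RNA made from the Igf2r locus, and was set aside, with background signals of 1.58 in 4 mM and 5.99 in 1 mM phosphate.

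Primary osteoblasts came from the skull caps of C57BL/6 mice aged 5 days. They were grown for 3 days with 10% serum, kept overnight without serum, and then held for 6 h in serum-free medium at pH 7.2 with 4 mM phosphate or, as the control, 1 mM phosphate. The extra phosphate was sodium phosphate, so the treated medium also received sodium. The comparison asked how gene expression in osteoblasts differs within hours of a higher phosphate concentration. Each condition was measured on 1 Affymetrix array, so no replicate error exists, no test between conditions was possible, and each difference describes these 2 arrays.

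IGF ligands act on cells through the IGF1 receptor, a tyrosine kinase that signals through insulin receptor substrates to the PI3K and AKT relay and through RAS to ERK. The IGF2 receptor, also the cation-independent mannose 6-phosphate receptor, carries IGF2 to lysosomes and does not relay the growth signal. IGF binding proteins hold the ligands outside the cell and either block or prolong their action, and proteases release the ligand again. Osteoblasts make IGF1, IGF2 and several binding proteins and store the ligands in bone matrix.

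The cultures carried the markers of their label but were mixed. The osteoblast collagen gene Col1a2 and the bone matrix gene Ibsp were bright on both arrays, with signals of 19590.3 and 14449 in 4 mM phosphate, against 16947.5 and 13398 in 1 mM phosphate. Of 14 macrophage markers, 14 were above background, as were 8 of 8 cartilage markers, while 0 of 6 endothelial markers were. Overall 51.0% of probe sets lay above the background floor in 4 mM phosphate and 49.0% in 1 mM phosphate. The floor was a signal of 21.5, the pooled median of both arrays, and lower values were raised to it. All 10 genes of the axis were above it on both arrays. In whole cultures, fewer cells of a type and less RNA per cell cannot be told apart.

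Most of the axis differed little between the conditions, and the exceptions were Igfbp3, which was higher in 4 mM phosphate, and Igf1, which was lower. With each gene represented by its brightest probe set, 1 of 10 was at least 1.5-fold higher, Igfbp3, where 7.25% of all 12241 measured genes were. A gene counted as measured if either array gave a signal over the floor. None was at least 1.5-fold lower, where 12.1% of measured genes were. None differed 2-fold either way, against 2.28% of measured genes 2-fold higher and 2.92% 2-fold lower. The median log2 ratio of 4 mM over 1 mM phosphate was 0.05 over the 10 genes and −0.06 over all measured genes. Ratios above 0 were found for 7 of the 10 genes with the authors' scaling, where 5393 of the 12241 measured genes had one. Of the 10, 4 were above 0 once the arrays had been quantile normalized and 5 with a loess fit removed. By the median of a gene's probe sets 4 were above 0. With equal poly-A spikes, RNAs added before labelling, 1 was above 0, and the median of all measured genes was −0.51. The share of all genes above 0 was not counted under these other settings.

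**Figure D1:**
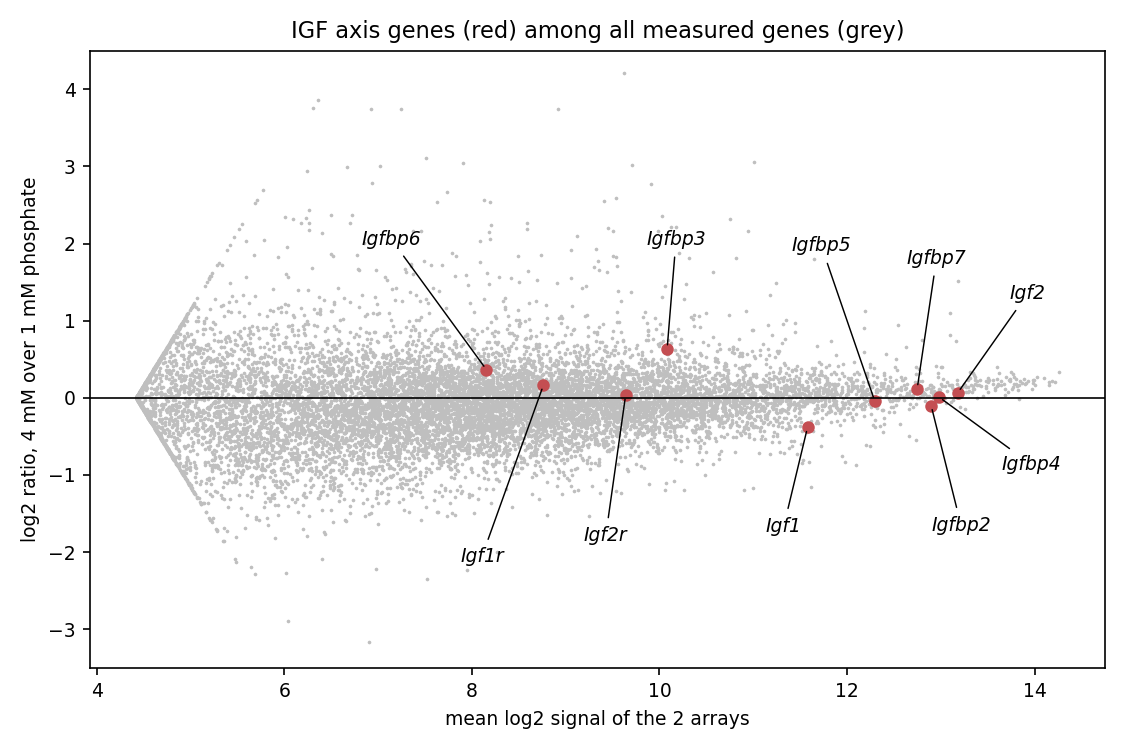
Log2 ratio of 4 mM over 1 mM phosphate (vertical axis) against the mean log2 signal of both arrays (horizontal axis) for 12241 measured genes in grey and the 10 genes of the IGF axis in red, each gene shown by its brightest probe set. Igfbp3 lies highest of the axis at 0.63 and Igf1 lowest at −0.38, and the slanted edge on the left is made by the floor.

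The only error available was technical. It was taken from the disagreement among probe sets of the same gene over the whole table, as the standard deviation (SD) of the log2 ratio per probe set. This was 0.42 for probe sets whose dimmer signal was 100 or less, 0.26 for those up to 400, and 0.16 for brighter ones. It contains no difference between cultures, and no shift shared by all probe sets of an array, such as one from labelling or scaling. Of the 25 probe sets of the axis with both signals above the floor, 12 (48.0%) had a ratio within 1 technical SD of 0, and 6 (24.0%) lay beyond 2. Over all named genes these shares were 49.3% and 20.4%. The 6 probe sets beyond 2 technical SD were the 4 of Igf1 and the 2 of Igfbp3. Of the 25 probe sets, 1 was at least 1.5-fold higher and 2 were at least 1.5-fold lower, where 8.08% and 11.0% of the 19125 probe sets of all named genes with both signals above the floor were.

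**Figure D2:**
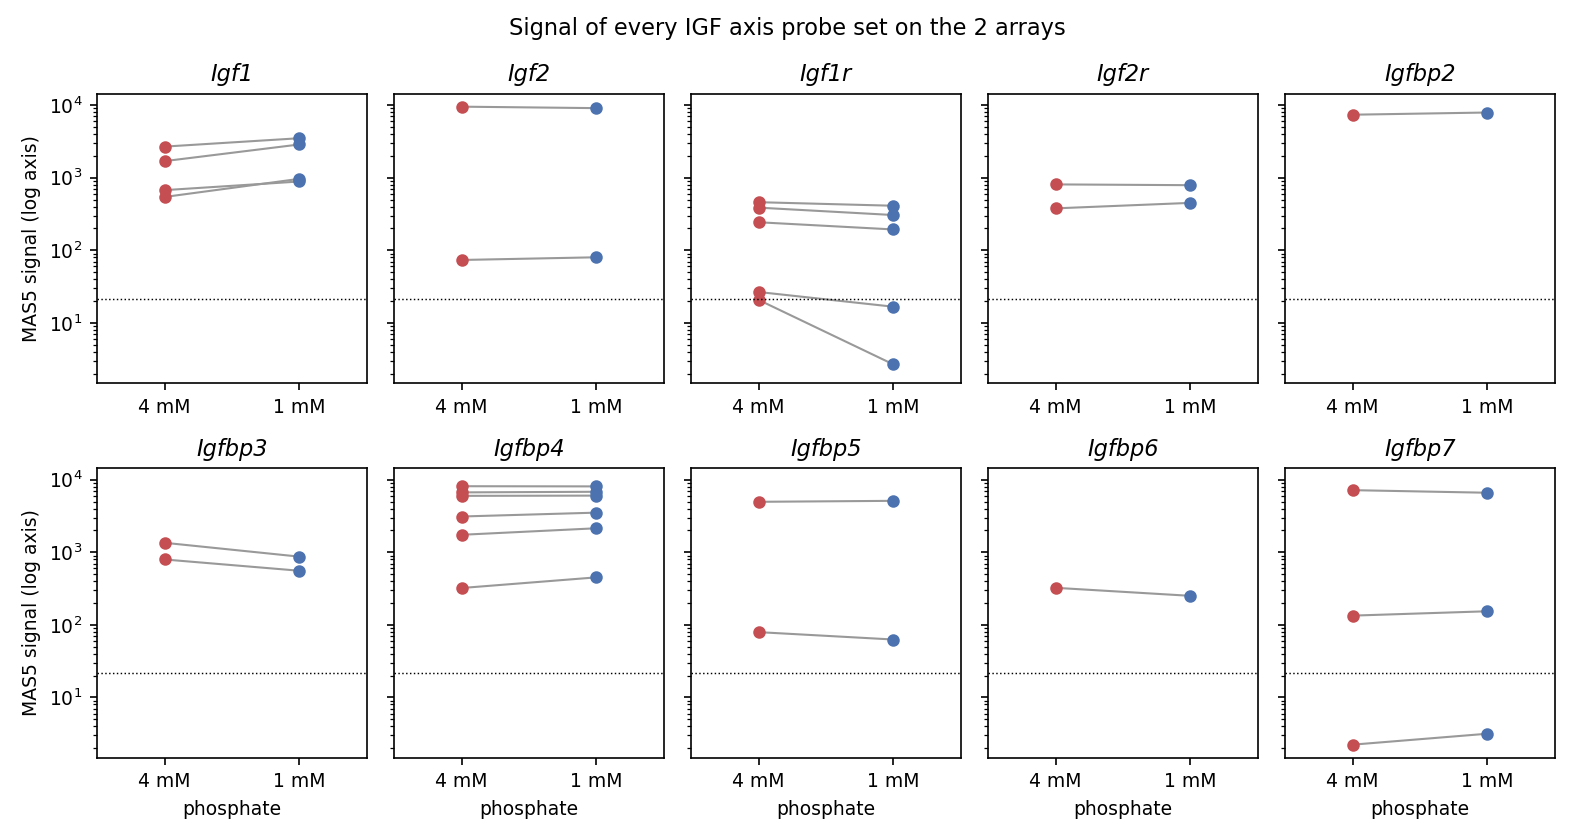
MAS5 signal on a log axis for each probe set of the 10 genes in 4 mM phosphate (left, red) and 1 mM phosphate (right, blue), with a line joining the 2 values of a probe set and a dotted line at the floor of 21.5. All 4 lines of Igf1 run higher in 1 mM phosphate, and both lines of Igfbp3 run higher in 4 mM phosphate.

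Igf1, the gene of the ligand that circulates from the liver and is also made locally in bone, was lower in 4 mM phosphate on each of its 4 probe sets. The brightest, 1437401_at, had a signal of 2678 in 4 mM phosphate and 3494 in 1 mM phosphate, 1.30-fold lower. The next, 1434413_at, had 1690 in 4 mM phosphate and 2866 in 1 mM phosphate, 1.70-fold lower. All 4 lay well above background, so the floor did not enter these ratios. Probe set 1452014_a_at gave 673 in 4 mM phosphate and 886 in 1 mM phosphate, and 1419519_at gave 542 in 4 mM phosphate and 963 in 1 mM phosphate. The ratios thus formed 2 pairs, with log2 values of −0.38 and −0.40 in the first and −0.76 and −0.83 in the second, and their mean was −0.59 ± 0.24 (SD, n = 4 probe sets of the same 2 arrays). The values differed between the pairs by more than the technical SD of 0.16. Where on the Igf1 transcripts each probe set lies was not analysed here.

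The size of the Igf1 difference therefore rested on the probe set. By the brightest, 35.1% of measured genes had a ratio at least as far from 0, and among the 4026 genes above a signal of 400 on both arrays 18.6% did. By the median of its probe sets Igf1 was 1.49-fold lower. Of all genes, 698 had 4 or more probe sets brighter than the floor in both conditions. Every such probe set was at −0.38 or lower for 10 of these genes (1.43%), and below 0 for 15.3%. The cut of −0.38 was Igf1's own least-moved value, and genes with more probe sets meet it less easily. These shares count 1 direction, unlike the 35.1% and 18.6%, and are a description and not a test.

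Igf2, the gene of the fetal and neonatal ligand, was almost level. Its bright probe set had a signal of 9506 in 4 mM phosphate and 9075 in 1 mM phosphate, a log2 ratio of 0.07. A dim probe set gave 73.5 in 4 mM phosphate and 80.1 in 1 mM phosphate, a log2 ratio of −0.12. Both values were within 1 technical SD of 0, and their sign was opposite. On probe sets of the same 2 arrays, Igf1 was at −0.38 to −0.83 and Igf2 at −0.12 to 0.07. The technical SD of the dim Igf2 probe set was 0.42, and a difference between the ligands was not tested.

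Igf1r, the gene of the signalling receptor, was slightly higher in 4 mM phosphate on each of the 3 probe sets with both signals above the floor, but lower on its brightest with the poly-A spikes set equal (−0.30). That probe set had signals of 459.6 in 4 mM phosphate and 411 in 1 mM phosphate. The other pair gave 387 and 243 in 4 mM phosphate, against 306 and 194 in 1 mM phosphate. The log2 ratios were 0.16, 0.34 and 0.33, between 1.01 and 1.31 technical SD from 0. Another probe set lay above the floor only in 4 mM phosphate, with 26.6, against 16.7 in 1 mM phosphate, a difference of at least 1.24-fold. The last was below the floor in both conditions. Of 1928 genes with at least 3 such probe sets, 11.7% had all of them as high as 0.16 or higher, so this pattern was not rare. That cut was Igf1r's own least-moved value.

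Igf2r, the gene of the receptor that clears IGF2, had signals of 808 in 4 mM phosphate and 788 in 1 mM phosphate on its brighter probe set, and a log2 ratio of 0.04. Its dimmer probe set gave 378 in 4 mM phosphate and 449.6 in 1 mM phosphate, a log2 ratio of −0.25. Both lay within 1 technical SD of 0.

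Igfbp3, which encodes the main carrier of IGFs in blood and a local inhibitor or reservoir in tissues, was the only gene of the axis past 1.5-fold on its brightest probe set. Probe set 1423062_at had a signal of 1351 in 4 mM phosphate and 870.2 in 1 mM phosphate, 1.55-fold higher. The second probe set, 1458268_s_at, gave 795 in 4 mM phosphate and 557 in 1 mM phosphate, 1.43-fold higher. Both were above 3 technical SD from 0, but their median was 1.49-fold, just under the threshold. Of 4954 genes with at least 2 such probe sets, 188 (3.79%) had all of them as high as 0.52 or higher. That cut was Igfbp3's own least-moved value, so the share is a description and not a test. With the poly-A spikes set equal the log2 ratio was 0.17.

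Igfbp6, which encodes a binding protein that prefers IGF2, had 1 probe set, with signals of 324 in 4 mM phosphate and 251 in 1 mM phosphate. Its log2 ratio of 0.37 was the next highest of the axis and lay 1.42 technical SD from 0, and it was −0.10 with the poly-A spikes set equal.

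Igfbp4, whose protein blocks IGF action until it is cleaved, had 6 probe sets with log2 ratios from −0.49 to 0.01. The furthest lay 1.89 technical SD from 0. The 3 brightest had signals of 8121, 6678 and 5981 in 4 mM phosphate, against 8076, 6809 and 6027 in 1 mM phosphate, with log2 ratios between −0.03 and 0.01. The 3 dimmer gave 3108, 1739.95 and 322 in 4 mM phosphate, against 3513, 2139.8 and 451 in 1 mM phosphate, with log2 ratios of −0.18, −0.30 and −0.49. The ratio was lower the dimmer the probe set among these 3, and the spread over all 6 was 0.20 (SD). By the manufacturer's naming, the suffixes on these probe sets (_a_at, _s_at and _x_at) mark probes that match several transcripts or may bind unrelated ones, which applies to all 6. Such suffixes are also on 1452014_a_at of Igf1, 1458268_s_at of Igfbp3 and the probe sets of Igfbp2 and Igfbp5.

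Igfbp5, a binding protein stored in bone matrix, was level on its bright probe set, with 4954 in 4 mM phosphate and 5108 in 1 mM phosphate. Its dim probe set gave 79.4 in 4 mM phosphate and 62.8 in 1 mM phosphate, a log2 ratio of 0.34 that was within 1 technical SD. Igfbp2, which binds IGFs and cell surface integrins, had 1 probe set with 7367 in 4 mM phosphate and 7899 in 1 mM phosphate, a log2 ratio of −0.10. Igfbp7, a relative that binds IGFs weakly, had 7166 in 4 mM phosphate and 6604 in 1 mM phosphate on its bright probe set, a log2 ratio of 0.12. Its second probe set gave −0.20, and the third was below the floor on both arrays. These 3 binding proteins gave no ratio beyond 1 technical SD.

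**Figure D3:**
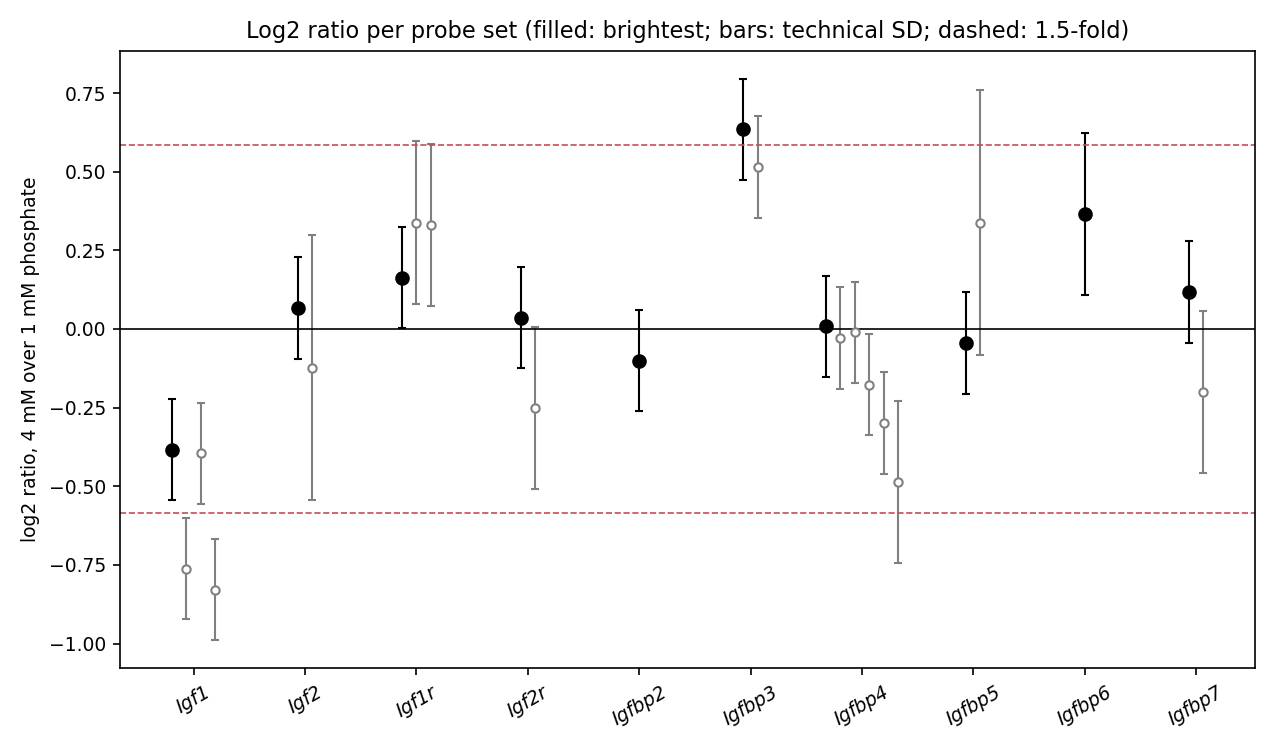
Log2 ratio of 4 mM over 1 mM phosphate for the 25 probe sets of the IGF axis with both signals above the floor, filled for the brightest probe set of a gene, with bars of 1 technical SD in each direction and dashed lines at 1.5-fold. The 4 probe sets of Igf1 lie between −0.83 and −0.38, the 2 of Igfbp3 at 0.63 and 0.52, and those of Igfbp4 spread downwards from 0.01 to −0.49.

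The DNA before the start sites of Igf1 and Igfbp3 is shown because these genes had the lowest and highest ratios. The sequences are from RefSeq on GRCm38.p6, 250 bases ending just before the listed start, written 5′ to 3′ on the strand of the gene. The Igf1 window is chr10:87860861-87861110 on the plus strand, at the only Igf1 start in the table used, and the Igfbp3 window is chr11:7213924-7214173 on the minus strand. Capitals mark the motif matches described after the sequences.
Igf1: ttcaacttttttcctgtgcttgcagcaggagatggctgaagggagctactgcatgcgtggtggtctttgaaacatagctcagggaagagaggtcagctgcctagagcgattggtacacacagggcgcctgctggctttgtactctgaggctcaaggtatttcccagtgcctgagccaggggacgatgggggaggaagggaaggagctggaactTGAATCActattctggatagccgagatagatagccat
Igfbp3: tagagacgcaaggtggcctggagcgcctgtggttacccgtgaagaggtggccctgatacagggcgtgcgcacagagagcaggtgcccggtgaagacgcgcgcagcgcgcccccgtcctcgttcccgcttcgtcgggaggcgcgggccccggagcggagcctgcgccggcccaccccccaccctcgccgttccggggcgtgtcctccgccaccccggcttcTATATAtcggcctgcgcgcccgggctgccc

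In the Igf1 window the letters matched the AP-1 motif TGANTCA once, starting at position −37 from the start site. In the Igfbp3 window they matched TATATA, a variant of the TATA box, starting at position −30. The share of all 32851 promoter windows of this length that held each motif, on either strand, was 6.75% for TGANTCA and 5.25% for TATATA. Guanine and cytosine made up 52.8% of the Igf1 window and 73.2% of the Igfbp3 window, against a median of 52.4% over all windows. Of the other motifs searched, the core of the CRE, TGACG, held by 17.8% of windows, was in 1 of 4 Igf2 windows and in the Igf2r window. The EGR motif GCGNGGGCG (4.70%) was in the Igf2r window, the TATA box TATAAA (12.4%) in those of Igfbp4 and Igfbp6, and TGANTCA also in 1 of 2 Igfbp2 windows. The full CRE TGACGTCA (1.55%), which contains TGACG, was in none of the 14 windows of the axis, and neither were the NR4A motif AAAGGTCA (1.34%), the FoxO motif TGTTTAC (3.17%) or the C/EBP motif TTGCNNAA (9.56%). A match is a run of letters and not evidence of binding.

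Most markers of macrophages and fat cells, which can also make IGF1, had ratios below 0, as Igf1 did. Of 14 macrophage markers, 13 had a ratio below 0, where 6847 of all 12241 measured genes had one. At least 1.5-fold lower were 5 of the 14 and higher was 1, where 12.1% and 7.25% of measured genes were. Laptm5, 1 of these 5, had 4 probe sets from −0.59 to 0.21, and Csf1r had 3 from −0.56 to 0.15. The median of the 14 markers was −0.55, and none was at the floor. Their summed signal was 14931 in 4 mM phosphate and 17020.2 in 1 mM phosphate. The brightest, the lysozyme gene Lyz2, was level at −0.03, the protease gene Ctss was at −0.36, and Cd14, a receptor for bacterial lipopolysaccharide, was the exception at 1.21. Of 4 measured fat cell markers, 4 were below 0 (median −0.44), with a summed signal of 3324 in 4 mM phosphate and 4096 in 1 mM phosphate. The brightest, the lipase gene Lpl and the fatty acid carrier gene Fabp4, were at −0.37 and −0.08. Pparg, the master regulator of fat cell formation, was at −1.73 and the dimmest of the 4, with signals of 23.0 in 4 mM phosphate and 76.0 in 1 mM phosphate. Of 9 measured osteoblast markers, 5 were above 0 and 4 below, with a median of 0.11. The lowest were Sp7 at −0.39 and Pth1r at −0.24. The summed signal of the 9 was 78024 in 4 mM phosphate and 64229.7 in 1 mM phosphate. That sum includes the osteocyte gene Dmp1, at 1.51, with 15707.5 in 4 mM phosphate and 5505 in 1 mM phosphate. Cartilage markers (median 0.04, with Comp at 0.09 and Col2a1 at −0.14) and smooth muscle and pericyte markers (median −0.12, with Acta2 at −0.15 and Pdgfrb at −0.12) were closer to level. Skeletal muscle markers were dim, with 3 of 6 measured, with the muscle actin gene Acta1 at −1.37 (21.5 in 4 mM phosphate and 55.9 in 1 mM phosphate) and the desmin gene Des at 0.26. The part of these cells in the lower Igf1 signal was not tested.

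**Figure D4:**
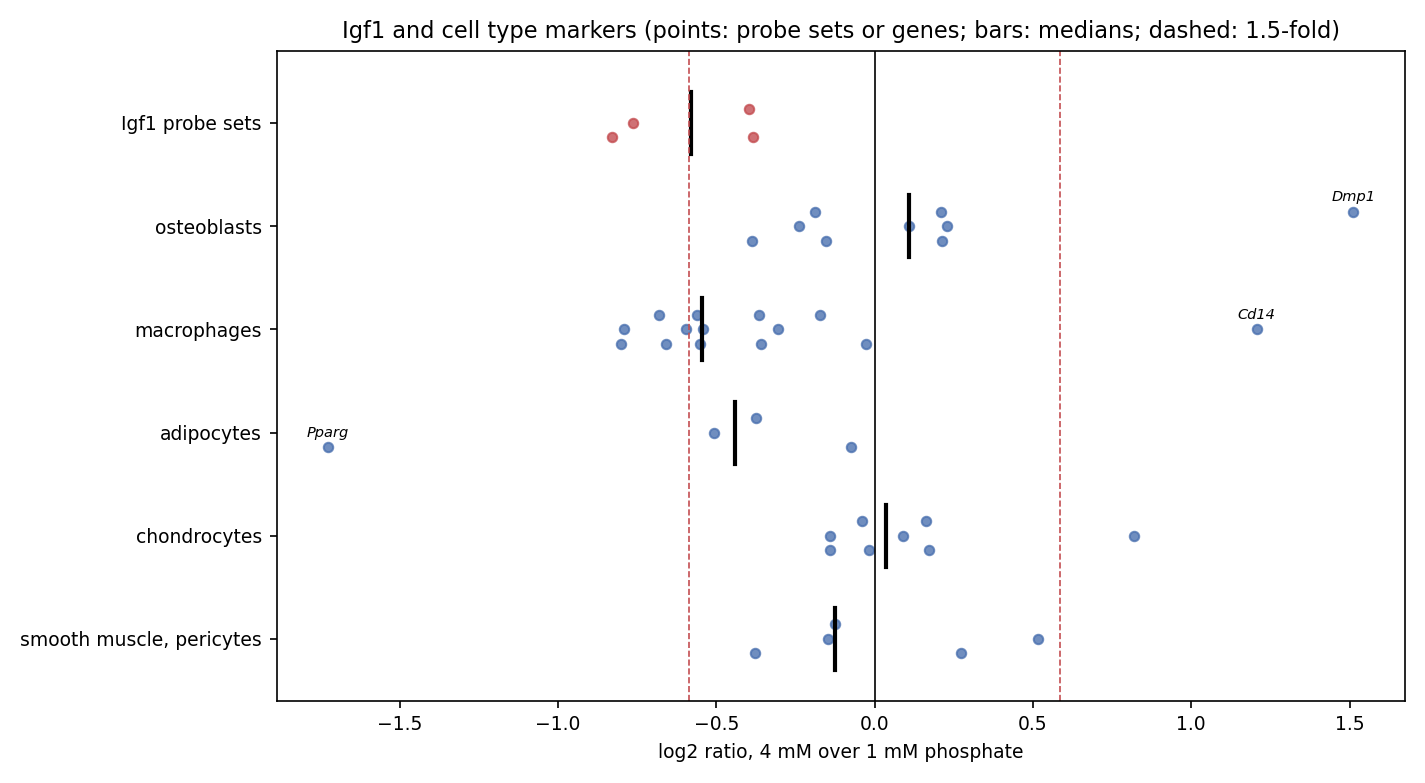
Log2 ratio of 4 mM over 1 mM phosphate for the 4 probe sets of Igf1 (top) and for the measured genes of 5 marker lists, with a black bar at each median and dashed lines at 1.5-fold. Each marker gene is shown by its brightest probe set, and on that basis Igf1 is at −0.38. The macrophage median is −0.55, the fat cell median −0.44 and the osteoblast median 0.11.

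Beyond the axis, 150 genes of its pathway were grouped in lists. Of 128 measured, 20 (15.6%) were at least 1.5-fold higher, where 7.25% of all measured genes were, and 10 (7.81%) were at least 1.5-fold lower, where 12.1% were. Their median log2 ratio was 0.07. The lists were written with earlier results of these data known.

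Of all measured genes, 80.6% were within 1.5-fold, and each list can be read against that share. Of 9 measured genes acting on the binding proteins, 8 were within 1.5-fold, 1 lay above and 0 lay below. That gene was Stc1, which encodes a stanniocalcin that inhibits the protease PAPP-A, with dim signals of 40.3 in 4 mM phosphate and 23.2 in 1 mM phosphate. Its relative Stc2 was at 0.41, with other probe sets down to −0.34. Pappa2, which encodes a protease that cleaves binding proteins 3 and 5, was at −0.54, and the secreted protease gene Htra3 at −0.41. Pappa itself, which encodes the protease that cleaves Igfbp4 protein, was at 0.20 and 0.78 on its 2 probe sets, and is named after its values were seen. Igfbp1 and Igfals, the genes of a liver binding protein and of the liver subunit of the circulating complex, were near or below background. Igfbp1 had signals of 1.18 in 4 mM phosphate and 1.13 in 1 mM phosphate, and Igfals had 18.6 in 4 mM phosphate and 26.7 in 1 mM phosphate. Of the insulin family list, 3 genes were measured and none differed 1.5-fold. Insr, the insulin receptor gene, was at −0.09, while Ins2 and Insl6 were above the floor only in 4 mM phosphate and at least 1.27-fold and 1.07-fold higher.

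Among genes just below the receptor, the inhibitor genes Socs3 and Socs1 and the substrate gene Irs2 were more than 2-fold higher. Of 22 measured adaptors and attenuators, 15 were within 1.5-fold, 5 were at least 1.5-fold higher and 2 were 1.5-fold lower, with a median of 0.20. Over all measured genes, 7.25% were that much higher and 12.1% that much lower. The genes of the 2 insulin receptor substrates, which dock on the IGF1 and insulin receptors, went opposite ways. Irs1 had a signal of 1957 in 4 mM phosphate and 3178 in 1 mM phosphate, 1.62-fold lower, on 1 probe set. Irs2 had 83.0 in 4 mM phosphate and 28.0 in 1 mM phosphate, 2.97-fold higher, also on 1 probe set and from near background. Socs3 and Socs1, genes of inhibitors of cytokine signalling that also bind insulin receptor substrates, were 5.13-fold and 3.54-fold higher. The 3 probe sets of Socs3 lay between 2.23 and 2.57 in log2 ratio. Grb14, which encodes an adaptor that inhibits the insulin receptor, was 1.72-fold lower, with 499 in 4 mM phosphate and 861 in 1 mM phosphate. The other higher genes, named after their values were seen, were the phosphatase gene Ptpn1 at 0.98 and the ubiquitin ligase gene Mdm2 at 0.72.

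Of 24 measured PI3K, AKT and mTOR genes, 19 were within 1.5-fold, near the share of all measured genes, while 2 were at least 1.5-fold higher and 3 lower, with a median of −0.03. The lowest was Deptor, which encodes an inhibitor of mTOR, with 64.3 in 4 mM phosphate and 169.7 in 1 mM phosphate, 2.64-fold lower, although its 4 probe sets ranged from −1.40 to −0.16. The lipid phosphatase gene Inpp5d was at −0.77 from dim signals, and Pik3r3, named after its value was seen, at −0.61. The highest were Rictor, a subunit gene of mTOR complex 2, at 0.69 and the kinase gene Pik3cb at 0.63. Of 6 measured RAS and ERK genes none differed 1.5-fold. Their extremes were the kinase genes Rps6ka3 and Map2k1 at 0.47 and 0.40, and Araf and Braf at −0.33 and −0.01.

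FoxO transcription factors are held out of the nucleus by IGF and insulin signals, and their target genes are used as a readout of low signalling. Of 21 measured FoxO factors and targets, 5 were at least 1.5-fold higher, where 7.25% of all measured genes were. At least 1.5-fold lower were 3, where 12.1% of all measured genes were. The median of the list was −0.04, with 10 genes above 0 and 11 below. The highest were the transcription factor genes Cited2 at 0.92 and Bcl6 at 0.90. Btg1, Ccng2 and Sod2, named after their values were seen, made up the other higher genes at 0.74, 0.70 and 0.64. The other probe set of each gene gave 0.65 for Bcl6 but 0.32 for Cited2, 0.25 for Btg1 and 0.13 for Ccng2. The 4 probe sets of Sod2 ranged from −0.02 to 0.76. Lower were Klf15, which was below the floor in 4 mM phosphate and at least 1.61-fold lower, the stress gene Sesn1 at −0.61 and, named after its value was seen, the catalase gene Cat at −0.60.

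Growth hormone drives Igf1 in liver through its receptor, JAK2 and STAT5. Of 6 measured genes of this route, 1 was at least 1.5-fold higher, where 7.25% of all measured genes were. None was 1.5-fold lower, where 12.1% were. Socs2, an inhibitor of growth hormone signalling, had a signal of 1354 in 4 mM phosphate and 627 in 1 mM phosphate on its brightest probe set, 2.16-fold higher, but another of its 3 probe sets gave 0.14. The receptor gene Ghr was at −0.37, with 3 probe sets between −0.41 and −0.16, while Stat5a and Stat5b were at −0.26 and 0.13. In osteoblasts, prostaglandin E2 and parathyroid hormone raise Igf1 through cyclic AMP and C/EBP factors. Of 12 measured genes of this route and of the steroid and vitamin D receptors that also act on Igf1, 4 were 2-fold or more above, where 2.28% of all measured genes were, and 0 were 1.5-fold below. The C/EBP genes Cebpb and Cebpd were 3.53-fold and 3.10-fold higher, with signals of 3391 and 2685 in 4 mM phosphate, against 962 and 866 in 1 mM phosphate. The second probe set of Cebpd gave 0.89, under 2-fold, and that of Cebpb gave 2.23. The prostaglandin synthase gene Ptgs2 had a log2 ratio of 4.21 and the cyclic AMP responsive gene Crem 1.57. Lowest were the vitamin D receptor gene Vdr at −0.52 and the estrogen receptor gene Esr1 at −0.44. Igf1 itself was lower in the same cultures, and any link between these genes and Igf1 was not tested.

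Igf2 belongs to a network of imprinted growth genes. Of 13 measured genes of that network and of IGF2 mRNA binding, 1 was at least 1.5-fold higher and 2 lower. Among all measured genes, 7.25% were higher and 12.1% lower by that size. The list had a median of −0.15. The imprinted genes Peg3 and Mest both had a log2 ratio of −0.73, with signals of 1802 and 2198 in 4 mM phosphate, against 2992 and 3644 in 1 mM phosphate. All 3 probe sets of Peg3 were lower, between −1.34 and −0.71. Hmga2, a chromatin gene known to drive Igf2bp2, which encodes an IGF2 mRNA binding protein, was 2.42-fold higher with 133 in 4 mM phosphate and 55.1 in 1 mM phosphate, and Meg3 was at 0.44. Of 12 genes of the mannose 6-phosphate route, which the IGF2 receptor serves, 11 were within 1.5-fold, where 80.6% of all measured genes were. The exception was Plaur, the gene of the urokinase receptor, at 1.63. The adaptor gene Gga3 was next at 0.40, and the lowest were Gnptg, a subunit of the enzyme that adds the mannose 6-phosphate tag, at −0.25 and Gga2 at −0.18.

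**Figure D5:**
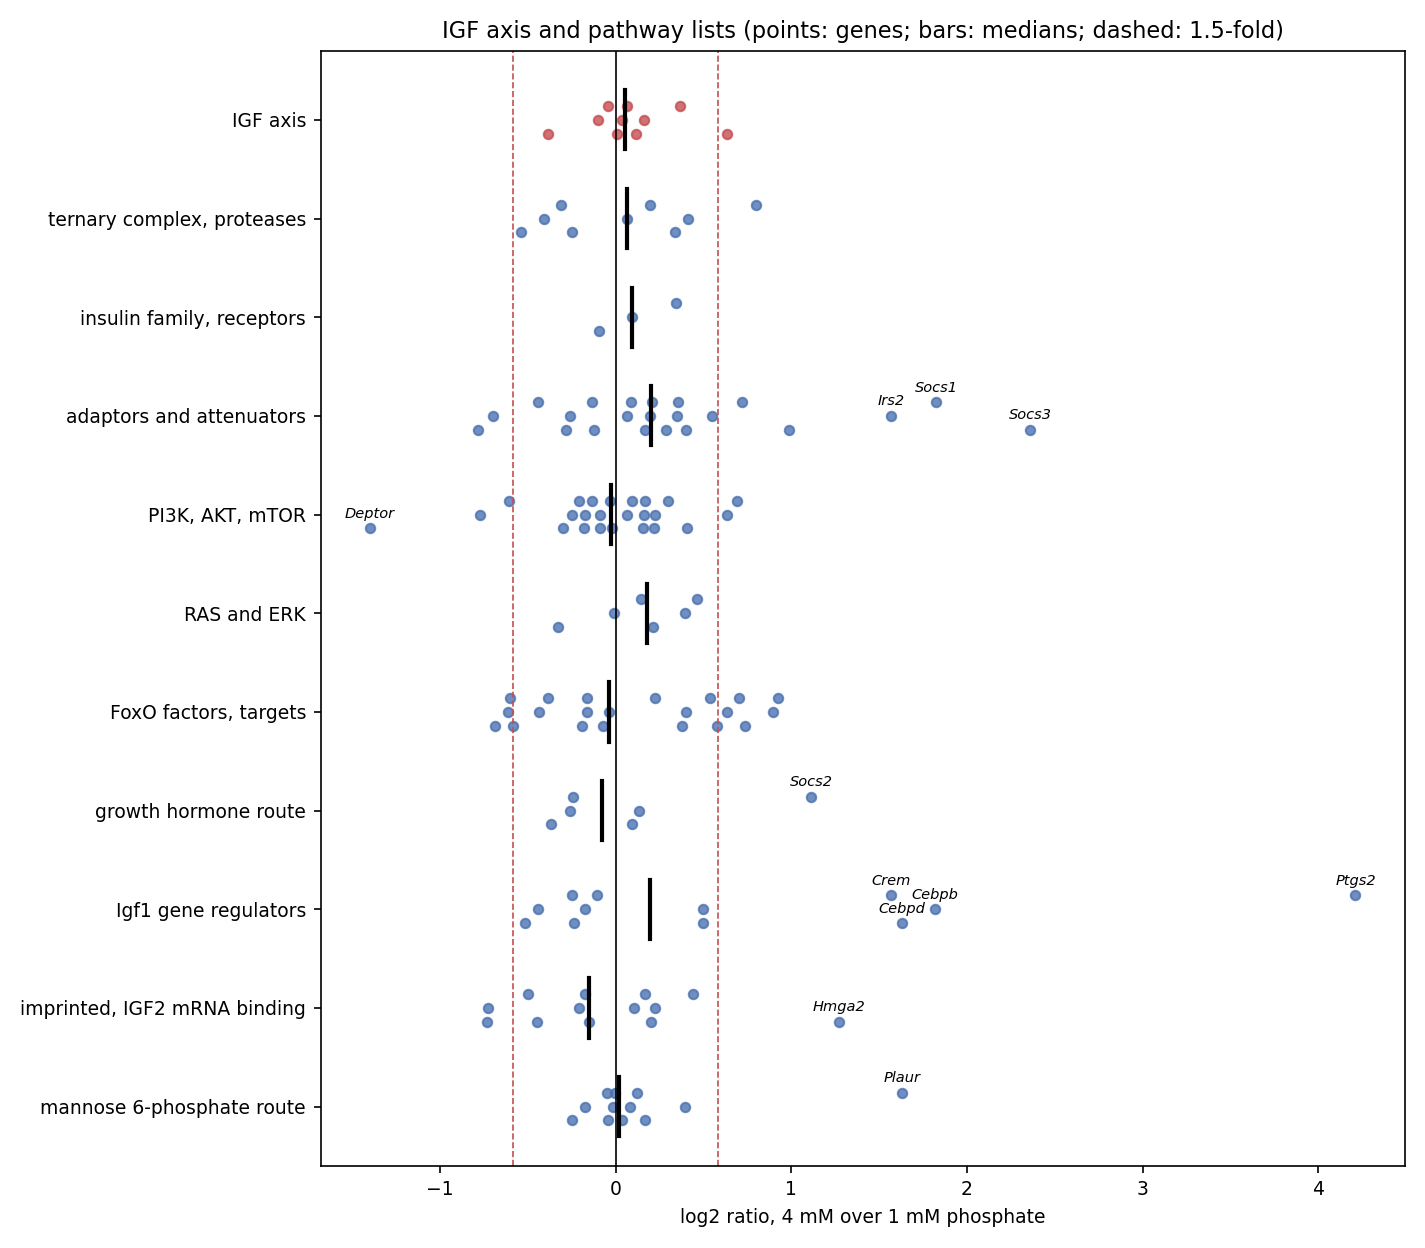
Log2 ratio of 4 mM over 1 mM phosphate for the 10 genes of the IGF axis (red, top) and the measured genes of 10 pathway lists (blue), with a black bar at each median, dashed lines at 1.5-fold and names on genes at least 2-fold apart. The axis stays between −0.38 and 0.63, while Socs3, Socs1, Irs2, Cebpb, Cebpd, Crem, Ptgs2 and Plaur lie beyond 1.5. Deptor lies at −1.40.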

How the data were processed

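RNA (100 ng per sample) was labelled and hybridised to Affymetrix arrays, 1 per condition, per the labels' protocols. The authors deposited linear intensity values, from GCOS 1.4 and its MAS5 algorithm per the submitters' processing notes, which combines the probes of a set into 1 signal. The mean signal, trimmed by 2% at each end, was 200.0 on both arrays, so a change of total mRNA per cell would not show. Detection calls were not used here.

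Of 45101 probe sets, 64 were controls, 34945 named 1 gene by the platform annotation, 932 several and 9160 none. Symbols were updated through Entrez identifiers against RefSeq (GRCm38.p6). Values below the floor were raised to it before log2 ratios of 4 mM over 1 mM phosphate were calculated. Each gene took its brightest probe set. Signals of different probe sets are not on 1 scale, so only ratios were compared between genes, and signals served to choose probe sets, to order markers and for summed marker signals. Precision is limited by there being 1 array per condition, since arrays have no read depth.

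Members, lists and thresholds were chosen with earlier results of these data known. Every member was named. From each pathway list the 2 highest, the 2 lowest and any gene 2-fold apart were named, and from marker lists the 2 brightest and those 2-fold apart. With 2 arrays no likeness of pattern between genes could be computed. The calculation was tested on simulated data. Python 3.11.15, pandas 2.3.3 and statsmodels 0.14.6 (loess span 0.3) were used, and 8 other settings were tried.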

Additional observations from a re-analysis of the deposited data

Results flagged for a closer look

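The manufacturer's poly-A spikes, bacterial RNAs carried through labelling and used here only in 1 alternative scaling, were brighter in 4 mM phosphate on all 24 probe sets, with log2 ratios from 0.20 to 0.65 and a median of 0.46. For the 18 probe sets of hybridisation spikes, added after labelling, the median was 0.23. Setting the poly-A spikes to equal signal lowers the ratio of every IGF axis gene by the same 0.46, by construction.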

How the results depend on the processing

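Igf1 was below 0 and Igfbp3 above 0 under all 8 other settings. The ratio of Igf1 ranged from −0.58 to −0.38 and that of Igfbp3 from 0.57 to 0.66 under the 7 settings other than the poly-A spikes. With the spikes set equal, the median of all genes moved to −0.51 and that of the axis to −0.41, 0 members were at least 1.5-fold higher and 1, Igf1 at −0.85, was lower, while Igfbp3 was at 0.17. This setting subtracts the same amount from every bright gene, so it leaves their order as it was. Shares of all genes at least 1.5-fold apart were counted with the authors' scaling only, and not under the other settings. With the median of all measured probe sets of a gene, 0 members were at least 1.5-fold higher, and Igf1 (−0.58) and Igfbp5 (0.15) moved by more than their technical SD. The cause of the spike difference was not tested. Every member's brightest probe set, at 251 or more, lay above all floors tried, so the floor settings could not move these ratios. The pseudocount, quantile normalization and the loess correction moved each by less than its technical SD. Signs of Igf2, Igf2r, Igfbp4, Igfbp5 and Igfbp7 turned under at least 1 setting, and those of Igf1r and Igfbp6 under the spike setting. Dim second probe sets of Igf2, Igfbp5 and Igfbp7 limit what can be said of those genes. No paired analysis was possible because each condition had 1 array.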

Other observations

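Igfbp2 and Igfbp5 are neighbouring protein-coding genes on chromosome 1, the only such pair within the axis, with log2 ratios of −0.10 and −0.04. Igfbp3 neighbours Igfbp1 on chromosome 11, and Igfbp1 was below the floor on both arrays while Igfbp3 was bright. On its other side lies Tns3, a tensin gene, at 0.16. Mrpl23, a mitochondrial ribosomal protein gene next to Igf2 on chromosome 7, was at −0.56, against 0.07 for Igf2. Synm, which encodes the filament protein synemin and lies next to Igf1r, was at 0.70. The other measured neighbours were Ins2 beside Igf2, above the floor only in 4 mM phosphate, Rpl37a beside Igfbp2 at 0.24, Top2a beside Igfbp4 at −0.11, Spryd3 beside Igfbp6 at 0.45 and Polr2b beside Igfbp7 at −0.18.

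The brightest probe set gave a higher ratio than the median of the others for 6 of 8 axis genes with 2 or more probe sets (75.0%), against 47.6% of 4954 genes in all. Igf1r and Igfbp5 were the exceptions.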
